A study of Mus musculus with 12 samples.

Results

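Lung CD103+ conventional dendritic cells (CD103+ cDC) were compared with lung Ly6Chi inflammatory monocyte-derived dendritic cells (Ly6Chi moDC, sorted as CD11bhi Ly6Chi cells) across all genes on the array. The members of the comparison were chosen by the titles of the samples and comprised 6 of the 12 arrays of the series, 3 of each population. The other 6 arrays were 3 of CD11bhi CD14lo cDC and 3 of CD11bhi CD14hi moDC, and they are used below to place named genes and to estimate the spread. All cells came from male C57BL/6J mice of 8 to 12 weeks whose airways had received 50 ul of buffered saline with 100 ng of lipopolysaccharide, a bacterial cell wall product that triggers inflammation, and 100 ug of the foreign protein ovalbumin. Lungs were taken 16 h later, 20 mice were pooled for each replicate, the sorted cells were over 93% pure by the labels, and 50 ng of RNA per sample was amplified and biotin labelled. Both populations had therefore been exposed to both agents, and no untreated population is analysed here. The sources used here do not say if replicates of equal number shared mice.

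Dendritic cells take up antigen, carry it to lymph nodes and present it to T cells. CD103+ lung DC belong to the conventional type 1 lineage (cDC1), which depends on the growth factor receptor Flt3 and the transcription factors Irf8 and Batf3 and is known for presenting engulfed antigen on MHC class I and for producing interleukin 12. Ly6Chi moDC arise from blood monocytes that enter inflamed tissue, and they are known for inflammatory mediators and for phagocytosis.

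The labels were first checked against the sort markers. Signals are MAS5 intensities in arbitrary units, and all 3 arrays of each population are given. Itgae, which encodes the CD103 chain itself, had signals of 15467, 12449 and 17620 in CD103+ cDC, against 114, 29.8 and 116 in Ly6Chi moDC. Xcr1, the receptor by which cDC1 sense a chemokine of cytotoxic T cells, had signals of 2244, 3514 and 2208 in CD103+ cDC, against 6.58, 23.5 and 20.8 in Ly6Chi moDC. Itgam, the CD11b chain, gave 72.1, 48.9 and 31.2 in CD103+ cDC, against 2390, 2113 and 2062 in Ly6Chi moDC. Both CD103+ cDC markers were high in every CD103+ cDC array and low in every Ly6Chi moDC array, and Itgam was the other way round. Cd14, a co-receptor for lipopolysaccharide, gave 875, 596 and 1432 in CD103+ cDC, against 10965, 9073 and 12468 in Ly6Chi moDC, again with no overlap. The log2 difference, always CD103+ cDC minus Ly6Chi moDC, was 6.86 ± 0.29 (SE) for Itgae, 5.31 ± 0.24 for Xcr1, -4.49 ± 0.18 for Itgam and -3.49 ± 0.23 for Cd14. Differences were taken on the log2 of the signal plus a pseudocount of 50.0, which understates the folds of dim genes. Among the further sort and study markers, Sirpa, an inhibitory receptor of myeloid cells, was 34.8-fold lower in CD103+ cDC, and C5ar1, the receptor for the complement fragment C5a, was 17.6-fold lower. Dpp4, a peptidase of the cell surface known as CD26, was 12.5-fold higher. Itgax, the CD11c chain used to define dendritic cells, averaged 5266 ± 397 in CD103+ cDC and 7989 ± 569 in Ly6Chi moDC (SD, n = 3 each, as for all means below), a 1.51-fold difference. Ly6c1 and Ly6c2, which encode the Ly6C antigen, had no probe set of a single gene and are not analysed here.

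**Figure D1:**
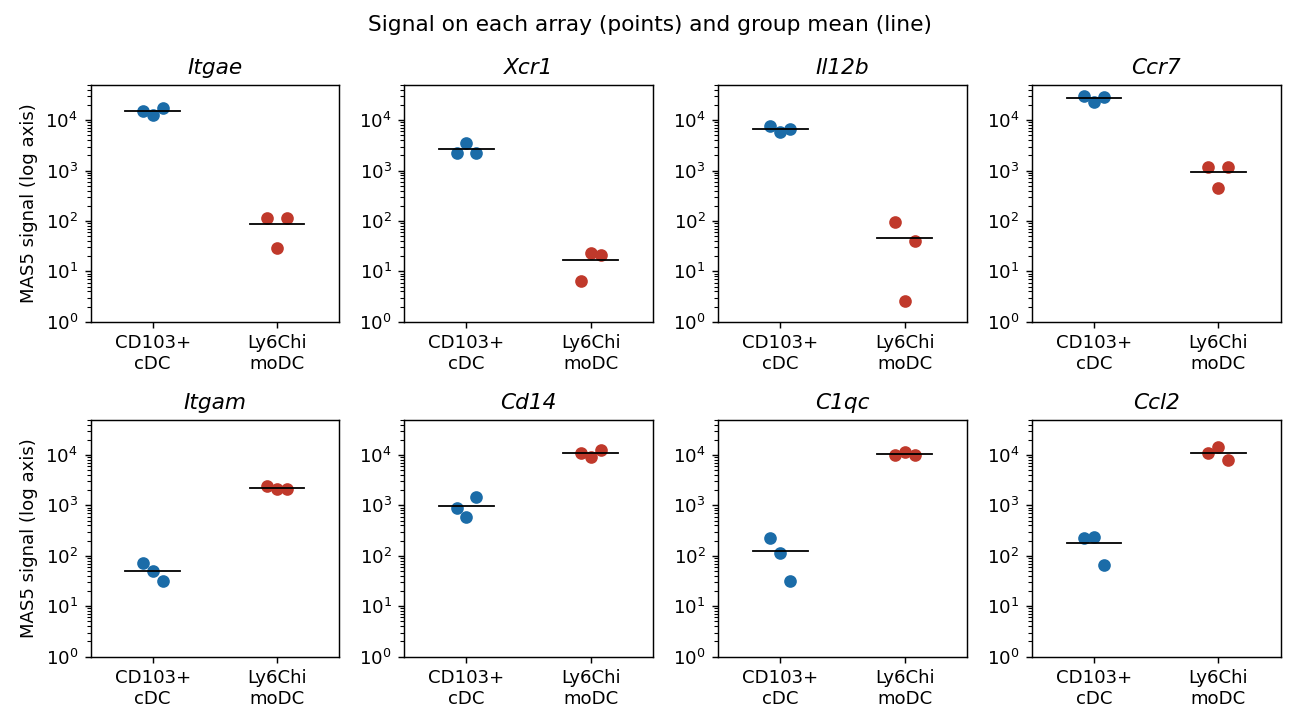
MAS5 signal (log axis) of 8 genes on each CD103+ cDC array (left) and each Ly6Chi moDC array (right), with the mean of each population as a line. No gene of the 8 has overlapping arrays: Itgae, Xcr1, Il12b and Ccr7 lie higher in CD103+ cDC, and Itgam, Cd14, C1qc and Ccl2 lie higher in Ly6Chi moDC. Itgae, Il12b, C1qc and Ccl2 belong to the largest differences, which were picked among genes without overlap.

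The arrays of each population resembled each other closely. Across genes, pairs of CD103+ cDC arrays correlated at 0.973 to 0.974, pairs of Ly6Chi moDC arrays at 0.979 to 0.983, and pairs of one array from each population at 0.782 to 0.808. Genes are not independent replicates, and 3 arrays per population limit the precision. The median signal ran from 82.8 to 103.8 in CD103+ cDC arrays and from 72.4 to 87.7 in Ly6Chi moDC arrays. As a measure of RNA quality, the Gapdh control probes at the 3′ end were set against those at the 5′ end, and this ratio was 3.26, 1.68 and 3.27 in CD103+ cDC, against 1.6, 1.48 and 1.91 in Ly6Chi moDC, so the first and the third CD103+ cDC array stood above the rest. The same ratio of beta-actin was 1.12, 0.97 and 1.03 in CD103+ cDC, against 1.04, 0.99 and 1.05 in Ly6Chi moDC. The part of RNA quality in the results was not tested, and counts without those 2 CD103+ cDC arrays are given below.

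Of 10918 genes tested, 2534 (23.2%) were higher and 2655 (24.3%) were lower in CD103+ cDC at an adjusted p under 0.05 (limma, Benjamini-Hochberg adjustment), which is 47.5% in all. At least 2-fold differences were found for 1300 genes (11.9%) that were higher and 1130 (10.3%) that were lower. Differences of at least 8-fold were found for 175 and 182 genes, and of at least 32-fold for 30 and 27 genes. The 3 arrays of the populations did not overlap for 5822 genes (53.3%). Without the CD103+ cDC arrays of high Gapdh ratio, 1847 genes were higher and 1811 lower, with the remaining array assumed to vary like those of the other populations. The median difference of all genes was -0.02, and centring the arrays at their medians moved it to -0.14, so differences are read relative to it. With that centring, the genes higher in CD103+ cDC numbered 2048 and the genes lower in CD103+ cDC 3176, so 39.2% of calls were higher, against 48.8% without it. Because 47.5% of genes were called, the counts of each gene list are to be read against the shares over all genes. These are 23.2% for members higher in CD103+ cDC and 24.3% for members lower. In sorted cells measured as a whole, fewer cells of a type and less RNA per cell cannot be told apart.

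The genes with the largest differences higher in CD103+ cDC included adhesion, signalling and cytokine genes. The largest differences in both directions were picked among called genes without overlap, so the separation of their arrays follows from that choice. Cldn1, a tight junction protein, stood next to Itgae, with signals of 8354, 8288 and 7361 in CD103+ cDC, against 39.8, 31.1 and 13.5 in Ly6Chi moDC. Adcy6, an enzyme that makes cyclic AMP, had signals of 11033, 6795 and 6721 in CD103+ cDC, against 46.7, 29.6 and 36.2 in Ly6Chi moDC. Il12b, the p40 chain shared by interleukins 12 and 23, had signals of 7704, 5766 and 6781 in CD103+ cDC, against 95.7, 2.58 and 40.6 in Ly6Chi moDC. All 3 genes were low on every Ly6Chi moDC array, and the populations were 104-fold, 91.9-fold and 76.3-fold apart (adjusted p = 2.2e-13, 1.4e-13 and 3.4e-11). Because the Ly6Chi moDC signals were this low, the order of these genes depended on the pseudocount. With a smaller one the Cldn1 log2 difference was 8.01 and the Itgae log2 difference 7.57, against 6.70 and 6.86 here. Septin3, a filament-forming GTPase, averaged 6728 ± 793 in CD103+ cDC and 54.2 ± 6.45 in Ly6Chi moDC. Serpinb6b, an intracellular serine protease inhibitor, averaged 9550 ± 1525 in CD103+ cDC and 110.2 ± 74.6 in Ly6Chi moDC. Ly75, the endocytic receptor DEC-205, averaged 3889 ± 1298 in CD103+ cDC and 37.4 ± 39.6 in Ly6Chi moDC. Tnfrsf9, the costimulatory receptor 4-1BB, was 43.8-fold higher, Timd4, a receptor for the phosphatidylserine of dying cells, 42.4-fold higher, and Sema7a, a membrane-bound semaphorin, 46.7-fold higher. The other members of the 15 largest were Flt3, Strip2, Adam23, Slc22a23 and Rtl8c, at 41.6-fold to 55.6-fold higher.

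The genes with the largest differences lower in CD103+ cDC included genes of phagocytes and of monocyte recruitment. C1qc, a chain of the complement component C1q, had signals of 224, 115 and 31.0 in CD103+ cDC, against 9773, 11505 and 10146 in Ly6Chi moDC. Ccl12, a chemokine that draws monocytes, had signals of 74.8, 109.6 and 59.1 in CD103+ cDC, against 8102, 9160 and 7484 in Ly6Chi moDC. Msr1, the scavenger receptor SR-A that takes up modified lipoprotein, had signals of 113, 40.5 and 2.64 in CD103+ cDC, against 6122, 5649 and 5580 in Ly6Chi moDC. In each case all CD103+ cDC arrays were low and all Ly6Chi moDC arrays high, as the choice of genes without overlap requires. Cd93, a C-type lectin-like receptor of myeloid and endothelial cells, averaged 52.5 ± 39.2 in CD103+ cDC and 6177 ± 182 in Ly6Chi moDC, a 64-fold difference. Fn1, the matrix protein fibronectin, averaged 312 ± 300 in CD103+ cDC and 15337 ± 1287 in Ly6Chi moDC, and Thbs1, the matrix protein thrombospondin 1, averaged 35.1 ± 31.7 in CD103+ cDC and 4443 ± 1100 in Ly6Chi moDC. Cmklr1, the receptor for chemerin, was 43.0-fold lower and Stab1, a scavenger receptor, 40.7-fold lower. Several of the 15 largest lay in the same gene families, with Clec4a3, Clec4n, Clec4e and Clec4a2 among the C-type lectins, C1qa beside C1qc, and Ccl2 beside Ccl12.

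The lists of lineage genes had some of the largest median differences. Of 23 tested members of the cDC1 identity list, 22 were higher in CD103+ cDC, 0 were lower and 1 was not called, with a median log2 difference of 4.14 against -0.02 over all genes tested. Cadm1, an adhesion molecule that marks cDC1 across species, was 38.9-fold higher, Naalad2, a glutamate-releasing peptidase, 34.1-fold higher, and Gcsam, a signalling protein of germinal centre B cells, 29.7-fold higher. Cadm1 was also high in CD14hi moDC, with a mean of 2868, against 3811 in CD103+ cDC, 262 in CD14lo cDC and 49.3 in Ly6Chi moDC. Rab7b, a GTPase of late endosomes, averaged 4080 ± 687 in CD103+ cDC and 3718 ± 362 in Ly6Chi moDC, with overlapping arrays. Of 21 conventional DC core genes, 17 were higher, 2 lower and 2 not called, with a median of 2.61. Flt3, whose ligand drives the conventional lineage, had signals of 6673, 5899 and 7676 in CD103+ cDC, against 153, 95.1 and 91.5 in Ly6Chi moDC. Zbtb46, a transcription factor restricted to conventional DC among myeloid cells at steady state, averaged 4535 ± 695 in CD103+ cDC and 188 ± 63.3 in Ly6Chi moDC. Btla, an inhibitory receptor, was 18.1-fold higher and Kit, the receptor for stem cell factor, 14.5-fold higher. The 2 lower members were Runx3, a transcription factor, at -0.57 ± 0.14 and Vav1, a signalling protein of blood cells, at -0.71 ± 0.16 on the log2 scale.

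Of 31 tested monocyte and macrophage identity genes, 28 were lower in CD103+ cDC, 1 was higher and 2 were not called, with a median log2 difference of -3.80. Fcgr1, the high affinity Fc receptor CD64 that is used to tell monocyte-derived cells from conventional DC, had signals of 279.5, 111 and 131 in CD103+ cDC, against 8029, 7384 and 9326 in Ly6Chi moDC. Cx3cr1, the fractalkine receptor, averaged 56.0 ± 20.3 in CD103+ cDC and 3449 ± 877 in Ly6Chi moDC, and Apoe, a lipid transport protein, averaged 133 ± 119.5 in CD103+ cDC and 5175 ± 1137 in Ly6Chi moDC. Ms4a7, a tetraspanning membrane protein of macrophages, was 40.6-fold lower. The single higher member was Mpeg1, the pore-forming perforin-2, at 0.66 ± 0.12, and 2 were higher without CD103+ cDC array 2. Nr4a1, a nuclear receptor needed by patrolling monocytes, was not called at 0.24 ± 0.17, and its arrays overlapped. Of 15 genes of the CD11b+ conventional DC list, 10 were lower, 2 higher and 3 not called, with a median of -1.15. Among the lower members, the sort marker Itgam, Sirpa, Clec4a2 and Clec4a3 had their highest mean in Ly6Chi moDC. The other lower members, Clec10a and Ddr1 among them, had it in CD14lo cDC. Clec10a averaged 146 in CD103+ cDC, 951 in Ly6Chi moDC and 5687 in CD14lo cDC, and Ddr1 52.2, 401 and 3699. Mgl2, a galactose-binding lectin of CD11b+ conventional DC, was not called and averaged 492 ± 148 in CD103+ cDC and 423 ± 184 in Ly6Chi moDC, against 3085 in CD14lo cDC and 4897 in CD14hi moDC.

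The list of lineage transcription factors split almost evenly, with 20 of 46 higher in CD103+ cDC, 21 lower and 5 not called. It also holds the receptor Notch2, counted among the higher members. Lower were Maf, a factor of macrophage maturation, with signals of 125, 113 and 47.1 in CD103+ cDC, against 5064, 5919 and 5343 in Ly6Chi moDC, and Zeb2, a repressor needed by monocytes and CD11b+ DC, with signals of 186, 96.5 and 70.7 in CD103+ cDC, against 4687, 4528 and 5211 in Ly6Chi moDC. Cebpb, a factor of monocyte survival and inflammation, had signals of 630.3, 383 and 392.5 in CD103+ cDC, against 11827, 11533 and 11799 in Ly6Chi moDC. None of the 3 had overlapping arrays, and they were 39.1-fold, 30.1-fold and 23.2-fold lower. Mitf, a factor of lysosome genes, was 13.2-fold lower and Nr1h3, the oxysterol receptor LXR alpha, 12.0-fold lower. On the CD103+ cDC side, Mycl, a Myc relative that supports cDC1, averaged 1305 ± 389 in CD103+ cDC and 57.0 ± 48.5 in Ly6Chi moDC, Zeb1, a relative of Zeb2, averaged 2689 ± 676 in CD103+ cDC and 208 ± 41.5 in Ly6Chi moDC, and Relb, a subunit of the non-canonical NF-kappaB pathway, averaged 5652 ± 1252 in CD103+ cDC and 841 ± 81.1 in Ly6Chi moDC. Zeb1 and Zeb2 thus differed in opposite directions. Irf8, Batf3 and Id2 were singled out for their known role in cDC1 after their values had been seen. Irf8 had signals of 13360, 11682 and 11543 in CD103+ cDC, against 2345, 2952 and 2853 in Ly6Chi moDC, Id2 was 4.68-fold higher, and Batf3 was 2.82-fold higher, with signals of 443, 1166 and 551 in Ly6Chi moDC. Spi1, which encodes the myeloid factor PU.1, was not called at -0.21 ± 0.14.

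**Figure D2:**
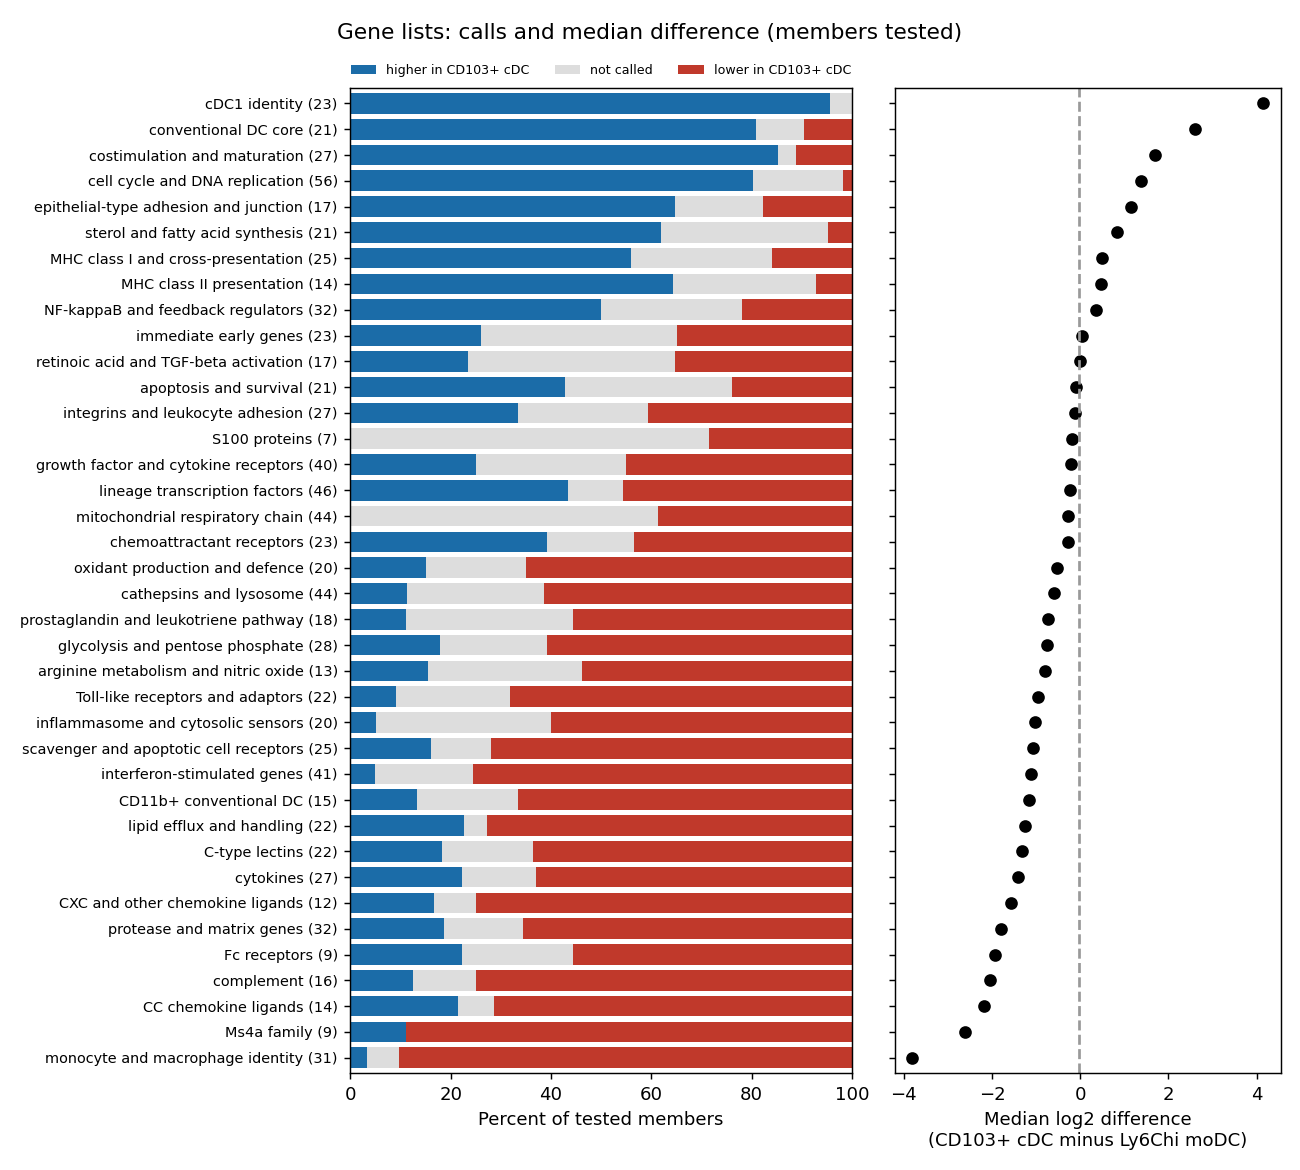
Left, percent of the tested members of each gene list that were higher in CD103+ cDC (blue), not called (grey) or lower (red), with the number tested in parentheses. Right, the median log2 difference (CD103+ cDC minus Ly6Chi moDC) of each list, with the median of all genes as a dashed line. Lists of conventional DC, maturation and cell cycle genes lie at the top, and those of monocyte identity, Ms4a, chemokine and complement genes at the bottom.

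Antigen presentation genes differed less in size than lineage genes. Of 14 tested genes of MHC class II presentation, 9 were higher in CD103+ cDC, 1 was lower and 4 were not called, with a median of 0.47. H2-Ob and H2-Oa, the chains of the DO molecule that tempers peptide loading, were 13.2-fold and 7.11-fold higher, with signals of 3778, 4352 and 4581 in CD103+ cDC, against 384, 272 and 194 in Ly6Chi moDC for H2-Ob. The classical chains H2-Ab1 and H2-Eb1 were 1.44-fold and 1.42-fold higher. These small differences depended on scaling, since 4 members were higher and 2 lower after quantile normalization, 5 were higher and 1 lower after median centring, and 4 were higher without the CD103+ cDC arrays of high Gapdh ratio. Ctsl, a protease of the class II pathway, was the single lower member at 10.2-fold lower, while Ctss, another such protease, was not called at -0.12 ± 0.11. Ciita, the master regulator of class II genes, was not called, with a mean of 1373 ± 84.0 in CD103+ cDC and 1351 ± 124 in Ly6Chi moDC. Of 25 genes of MHC class I and cross-presentation, 14 were higher, 4 lower and 7 not called, with a median of 0.49. Without CD103+ cDC array 2, 7 were lower, and without the CD103+ cDC arrays of high Gapdh ratio 11 were higher and 2 lower. Wdfy4, which cDC1 need to cross-present, averaged 13572 ± 1755 in CD103+ cDC and 2246 ± 368 in Ly6Chi moDC. Tap2, a subunit of the peptide transporter, was 2.89-fold higher and Nlrc5, the regulator of class I genes, 2.55-fold higher. Cybb, the catalytic subunit of the phagocyte NADPH oxidase, and Rac2, a GTPase of the same complex, went the other way at 16.1-fold and 4.66-fold lower.

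Genes of costimulation and maturation were higher in CD103+ cDC in 23 of 27 tested members, with 3 lower, 1 not called and a median of 1.70. Ccr7, the receptor that guides mature DC to lymph nodes, had signals of 29925, 22454 and 29020 in CD103+ cDC, against 1188, 442 and 1178 in Ly6Chi moDC. Fscn1, an actin-bundling protein of mature DC, had signals of 18683, 20353 and 22896 in CD103+ cDC, against 1206, 412 and 1829 in Ly6Chi moDC. Ccl22, a chemokine for regulatory and helper T cells, had signals of 24918, 22443 and 22362 in CD103+ cDC, against 1005, 359 and 645 in Ly6Chi moDC. Every CD103+ cDC value lay above every Ly6Chi moDC value of the same gene, and the genes were 29.7-fold, 20-fold and 34.7-fold higher. Cd200, an inhibitory ligand, was 38.7-fold higher, Tnfrsf4, the costimulatory receptor OX40, 24.6-fold higher, and Il15ra, which presents interleukin 15 to neighbouring cells, 12.2-fold higher. Cd70, a ligand that primes CD8 T cells, averaged 572 ± 67.8 in CD103+ cDC and 16.7 ± 12.0 in Ly6Chi moDC. Both other populations lay between for Ccr7 and Fscn1, with mean signals for Ccr7 of 14474 in CD14lo cDC and 14561 in CD14hi moDC and for Fscn1 of 12473 in CD14lo cDC and 13483 in CD14hi moDC. The lower members were Lgals9, Cd200r1 and Vsir, which encode a galectin, the receptor for Cd200 and an inhibitory receptor, and Lgals9 was the farthest at 6.11-fold lower. Cd48, an adhesion partner of lymphocyte receptors, was not called.

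Cytokine genes were lower in CD103+ cDC in 17 of 27 tested members, with 6 higher, 4 not called and a median of -1.41. The chains of interleukin 12 differed in opposite directions. Il12b was 76.3-fold higher, whereas Il12a, which encodes the p35 chain, was lower and dim, with signals of 28.2, 34.2 and 27.6 in CD103+ cDC, against 430.1, 167 and 185 in Ly6Chi moDC (3.63-fold lower, adjusted p = 1.5e-05). Il12a was singled out for this contrast after its values had been seen. Il23a, the chain that pairs with p40 in interleukin 23, was not called at -0.49 ± 0.39, and its arrays overlapped. Ebi3, the partner chain of interleukins 27 and 35, averaged 3522 ± 794 in CD103+ cDC and 749 ± 148 in Ly6Chi moDC. Il15, a survival factor of natural killer and memory CD8 T cells, was 3.05-fold higher. Inhba, the activin A subunit, had signals of 113, 59.5 and 46.4 in CD103+ cDC, against 4217, 1324 and 1810 in Ly6Chi moDC. Osm, a cytokine of the interleukin 6 family, had signals of 508, 245 and 403 in CD103+ cDC, against 8111, 6136 and 7128 in Ly6Chi moDC. Il1rn, the antagonist of the interleukin 1 receptor, had signals of 1990, 802 and 834 in CD103+ cDC, against 12297, 9335 and 9881 in Ly6Chi moDC. In these 3 genes each Ly6Chi moDC array exceeded each CD103+ cDC array. Vegfa, a growth factor for vessels, was 17.6-fold lower, Pdgfa, a growth factor for fibroblasts, 7.04-fold lower, and Igf1, insulin-like growth factor 1, 6.43-fold lower. Il10, an anti-inflammatory cytokine, averaged 12.2 ± 8.76 in CD103+ cDC and 349.8 ± 185 in Ly6Chi moDC. Tnf, a main inflammatory cytokine, was not called at -0.19 ± 0.29, with overlapping arrays.

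The CC chemokine ligands were lower in CD103+ cDC in 10 of 14 tested members and higher in 3, with a median of -2.17. Ccl2, the main ligand of the monocyte receptor Ccr2, had signals of 226, 234 and 65.4 in CD103+ cDC, against 11113, 14147 and 8046 in Ly6Chi moDC. Ccl7, a further ligand of that receptor, had signals of 213, 69.7 and 62.7 in CD103+ cDC, against 3932, 6043 and 3496 in Ly6Chi moDC. Ccl2 was 52.2-fold lower, Ccl7 29.0-fold lower and Ccl12 63.8-fold lower. Ccl24, an eosinophil chemokine, was 19.6-fold lower, and Ccl3, an inflammatory chemokine that binds Ccr1, 7.95-fold lower. The 3 higher members were Ccl22, Ccl17 and Ccl5. Ccl17, which like Ccl22 binds Ccr4 on T cells, had signals of 27242, 17997 and 27294 in CD103+ cDC, against 3028, 2367 and 1600 in Ly6Chi moDC. Ccl5, which draws effector T cells, was 3.42-fold higher. These genes were high in the other populations too. Means in CD14lo cDC and CD14hi moDC were 12613 and 17302 for Ccl22 and 14647 and 19595 for Ccl17. For Ccl5 they were 10311 and 17199, against 14993 in CD103+ cDC. Of 12 CXC and other chemokines, 9 were lower, 2 higher and 1 not called, with a median of -1.56. Pf4, platelet factor 4, averaged 155 ± 114 in CD103+ cDC and 2054 ± 415 in Ly6Chi moDC, and Cxcl2, a neutrophil chemokine, averaged 1348 ± 575 in CD103+ cDC and 11238 ± 1008 in Ly6Chi moDC. Cx3cl1, the ligand of Cx3cr1, ran opposite to its receptor, at 12.1-fold higher against 32.7-fold lower, and Cxcl16, a ligand of T cells, was 1.57-fold higher. Cxcl13, a B cell chemokine, was not called, with means of 275 ± 245 in CD103+ cDC and 163 ± 42.3 in Ly6Chi moDC, against 161 in CD14lo cDC and 10162 in CD14hi moDC.

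**Figure D3:**
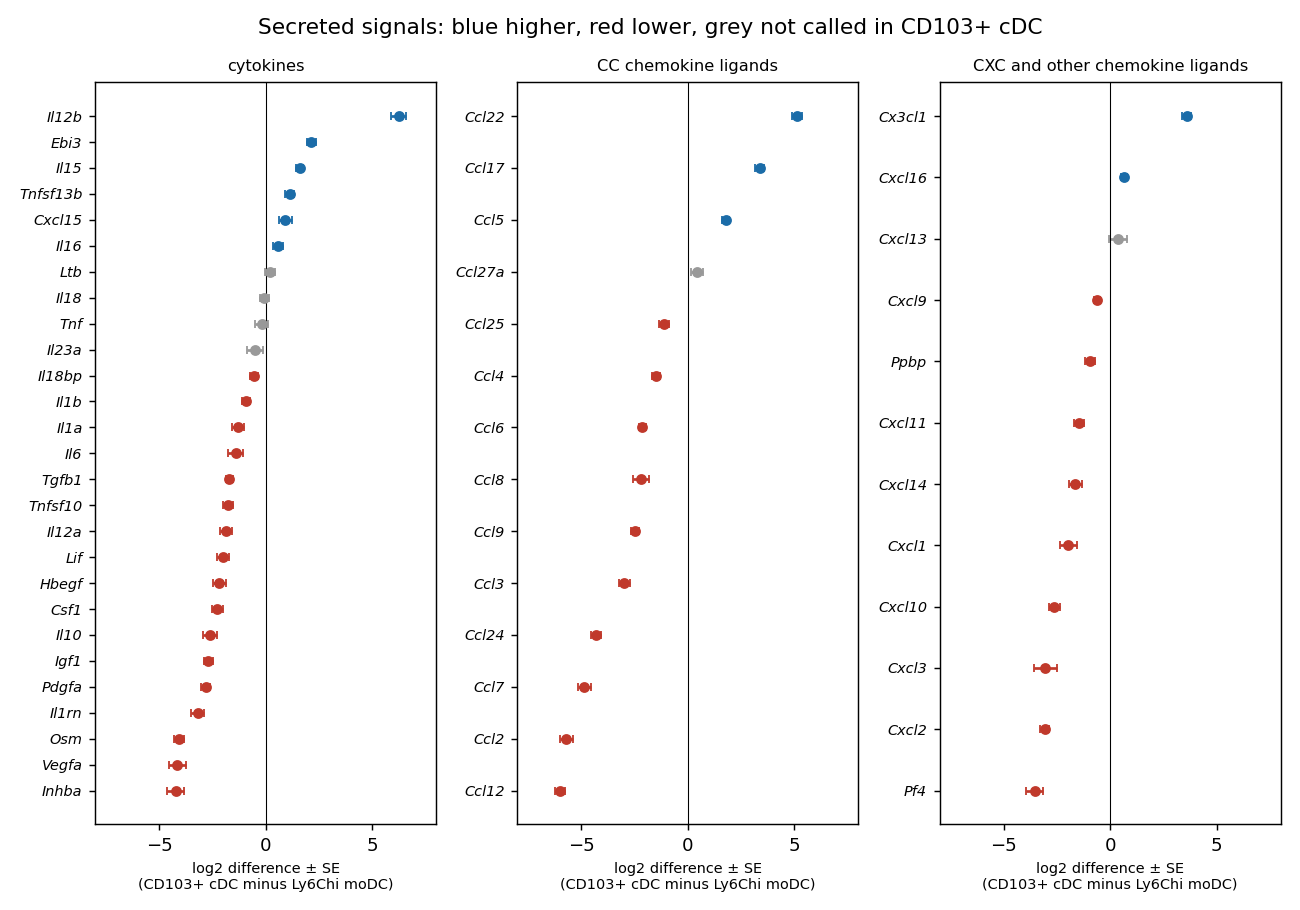
Log2 difference (CD103+ cDC minus Ly6Chi moDC) with its SE of every tested cytokine (left), CC chemokine (middle) and CXC or other chemokine (right), blue where higher, red where lower and grey where not called. Most genes lie left of 0, and Il12b, Ccl22, Cx3cl1 and Ccl17 lie farthest to the right.

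Receptors for attractants split in direction. Of 23 tested, 9 were higher in CD103+ cDC, 10 lower and 4 not called, with a median of -0.27. Besides Xcr1 and Ccr7, the higher members included Cxcr5, the receptor for the B cell follicle chemokine Cxcl13, with signals of 663, 412 and 500.2 in CD103+ cDC, against 2.16, 1.94 and 2.01 in Ly6Chi moDC, and Cxcr3, the receptor for interferon-induced chemokines, with signals of 725, 1054 and 907 in CD103+ cDC, against 112, 142 and 108 in Ly6Chi moDC. Both receptors were dim in every Ly6Chi moDC array. The lower members held the anaphylatoxin receptors C5ar1 and C3ar1, the formyl peptide receptor Fpr2 and the chemokine receptor Ccr1, and C3ar1 and Ccr1 were 35.3-fold and 20.8-fold lower. Gpr183, an oxysterol receptor that positions DC in spleen, was not called at 0.26 ± 0.21.

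Receptors for microbes were mostly lower in CD103+ cDC. Of 22 Toll-like receptors and adaptors, 15 were lower, 2 higher and 5 not called, with a median of -0.95. Tlr2, a receptor for bacterial lipoproteins, had signals of 592, 513 and 457 in CD103+ cDC, against 6673, 5560 and 7468 in Ly6Chi moDC. Tlr1, which forms a pair with Tlr2, was 10.5-fold lower, Tlr7 and Tlr8, sensors of single-stranded RNA, 5.94-fold and 5.83-fold lower, and Tlr4, the receptor for lipopolysaccharide, 5.61-fold lower. The higher members were Tlr3, the endosomal sensor of double-stranded RNA, with signals of 8989, 10614 and 9068 in CD103+ cDC, against 824, 857 and 1023 in Ly6Chi moDC, and Tlr12, which senses a parasite profilin, at 2.88-fold higher. Ly96, the partner of Tlr4 for binding lipopolysaccharide, was not called at -0.23 ± 0.21. Without the CD103+ cDC arrays of high Gapdh ratio, 14 members of the list were lower and 4 higher. Of 20 inflammasome and cytosolic sensor genes, 12 were lower, 1 higher and 7 not called, with a median of -1.02, and 0 were higher without CD103+ cDC array 2 or Ly6Chi moDC array 1 or 3 and under either other scaling. Mefv, the sensor pyrin, was 13.9-fold lower, Ddx58, the RNA sensor RIG-I, 5.48-fold lower, and Nlrp3, the core of a main inflammasome, 3.53-fold lower. Aim2 and Cgas, both sensors of cytosolic DNA, were not called, at 0.48 ± 0.21 and 0.28 ± 0.17.

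C-type lectins were lower in CD103+ cDC in 14 of 22 tested members and higher in 4, with a median of -1.31. Clec4e, the sensor Mincle of fungal and mycobacterial glycolipid, had signals of 249.9, 44.1 and 34.7 in CD103+ cDC, against 7364, 4326 and 7427 in Ly6Chi moDC. Clec4n, the receptor Dectin-2 for fungal mannans, had signals of 149.9, 88.2 and 20.7 in CD103+ cDC, against 8380, 6878 and 6166 in Ly6Chi moDC. Mrc1, the mannose receptor, averaged 163 ± 87.4 in CD103+ cDC and 4434 ± 366 in Ly6Chi moDC. Apart from Ly75, the higher members were Clec1a, Klrd1 and Clec2i, and Clec1a, a receptor for fungal melanin, averaged 1209 ± 472 in CD103+ cDC and 46.2 ± 5.03 in Ly6Chi moDC. Of 9 Fc receptor genes, 5 were lower, 2 higher and 2 not called. Fcgr3 and Fcgr4, activating receptors for IgG, were 27.1-fold and 19.1-fold lower, and Fcer1g, their signalling chain, was 3.89-fold lower with signals of 5394, 5101 and 3642 in CD103+ cDC. Higher were Fcgrt, the neonatal receptor that recycles IgG, at 2.65-fold and Fcrla, an intracellular Fc receptor relative, at 7.82-fold. Of 16 complement genes, 12 were lower, 2 higher and 2 not called, with a median of -2.05. The lower members include the sort marker Itgam, whose direction follows from the sort on CD11b. C1qa and C1qb, the other chains of C1q, were 49.3-fold and 19.6-fold lower, and Cfb, a factor of the alternative pathway, 37.6-fold lower. Hc, the gene of complement C5, was 10.8-fold higher, with means of 589.6 ± 244 in CD103+ cDC and 6.88 ± 6.06 in Ly6Chi moDC, and thus opposite to C5ar1, the receptor for its fragment. Clu, a secreted chaperone, was 4.2-fold higher.

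Many of these genes lie side by side in the genome. In the order of RefSeq genes (GRCm38.p6), the tested Clec4 genes of chromosome 6 formed a run in which 6 of 6 were lower in CD103+ cDC, with log2 differences of -5.88 to -2.55, and C3ar1 and the endocytosis gene Necap1 next to them were lower too, at -5.14 and -1.69. All 3 C1q genes of chromosome 4 were lower, at -6.09 to -4.29, whereas Zbtb40 and Wnt4 nearby were not called. All 4 tested chemokine genes of the Ccl2 run on chromosome 11 (Ccl2, Ccl7, Ccl12 and Ccl8) were lower, at -6.0 to -2.21, with Ccl8 named for its place in the run after its value had been seen. Of 9 tested Ms4a genes on chromosome 19, 8 were lower, down to -5.34 for Ms4a7. The exception was Ms4a1, the B cell antigen CD20, at 1.14 ± 0.33 and dim, with signals of 145, 100.5 and 190.4 in CD103+ cDC, against 20.8, 69.6 and 27.6 in Ly6Chi moDC. Neighbours in a family can share sequence, and cross-hybridization between their probes was not tested.

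**Figure D4:**
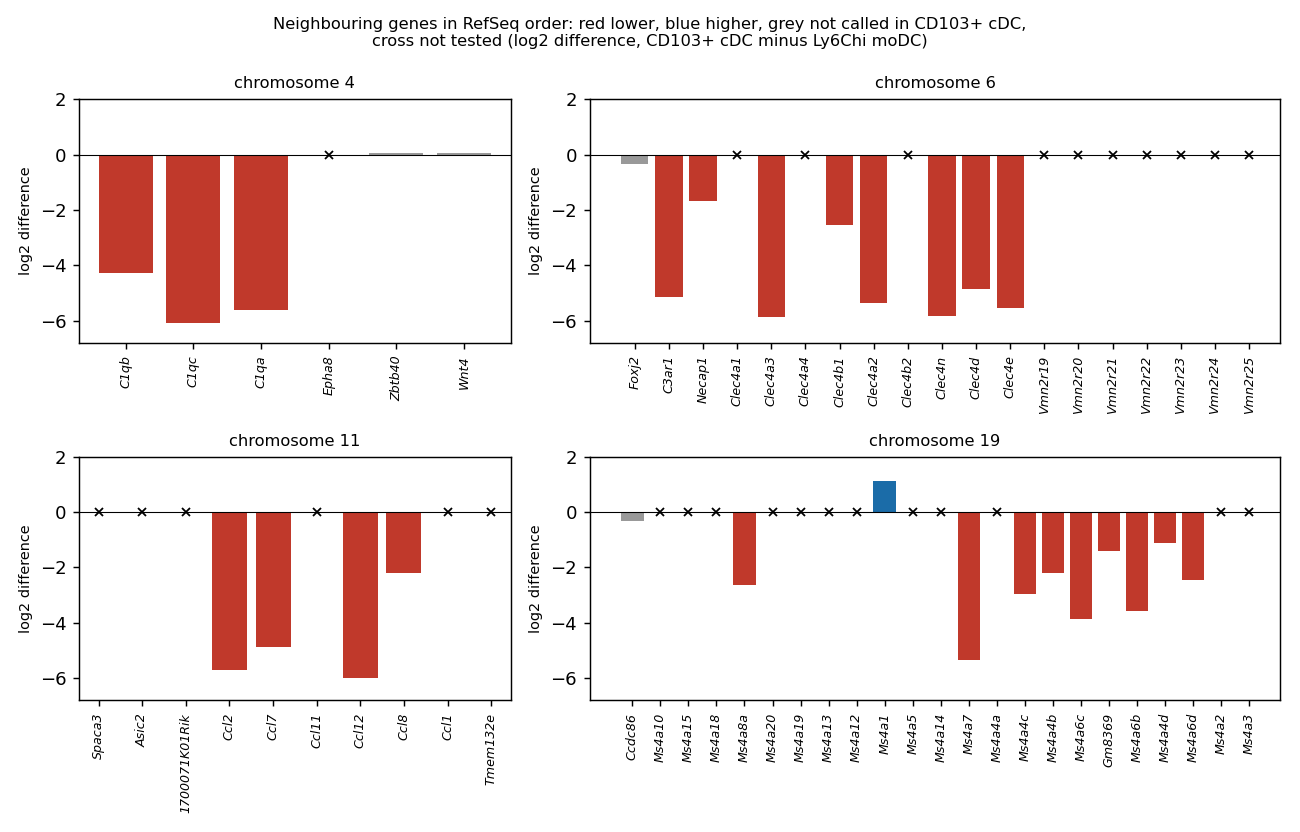
Log2 difference (CD103+ cDC minus Ly6Chi moDC) of neighbouring genes in RefSeq order around the C1q, Clec4, Ccl2 and Ms4a genes, red where lower, blue where higher, grey where not called and a cross where not tested. The red bars form runs within each family, and Ms4a1 is the one blue bar.

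Genes of uptake and degradation were mostly lower in CD103+ cDC, with exceptions among receptors for dying cells. Of 25 scavenger and apoptotic cell receptors, 18 were lower, 4 higher and 3 not called, with a median of -1.08. Olr1, a receptor for oxidized lipoprotein, averaged 128 ± 28.0 in CD103+ cDC and 2829 ± 647 in Ly6Chi moDC, and Itgb5, an integrin chain that binds apoptotic cells through a bridging protein, 334 ± 74.7 in CD103+ cDC and 6102 ± 952 in Ly6Chi moDC. The higher members were Timd4 and Havcr1, both receptors for phosphatidylserine, Cd36, a scavenger receptor for fatty acids and dying cells, and Mfge8, a bridging protein. Timd4 had signals of 4240, 3216 and 3950 in CD103+ cDC, against 39.4, 28.2 and 55.3 in Ly6Chi moDC, and Havcr1 had signals of 1519, 1548 and 1786 in CD103+ cDC, against 1.52, 5.09 and 27.2 in Ly6Chi moDC. Cd36 averaged 7544 ± 665 in CD103+ cDC and 990.1 ± 244 in Ly6Chi moDC, while CD14hi moDC reached a like mean, with 923 in CD14lo cDC and 7408 in CD14hi moDC. Of 44 lysosomal genes, 27 were lower, 5 higher and 12 not called, with a median of -0.59. Ctsa, a protective carboxypeptidase, was 26.9-fold lower, Ctsd, an aspartic protease, 12.6-fold lower, and Acp5, an acid phosphatase, 11.7-fold lower. Cst3, the protease inhibitor cystatin C, went the other way at 2.52-fold higher, and Ppt1, a thioesterase that removes fatty acids from proteins, at 2.89-fold higher. After quantile normalization or median centring 2 members of the lysosomal list were higher, and likewise 2 without CD103+ cDC array 1 or Ly6Chi moDC array 3.

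Lipid genes split by pathway. Of 22 lipid efflux and handling genes, 16 were lower in CD103+ cDC, 5 higher and 1 not called, with a median of -1.24. Abca1, the exporter of cholesterol, had signals of 87.4, 63.3 and 16 in CD103+ cDC, against 2002, 1854 and 2042 in Ly6Chi moDC, and Pltp, a phospholipid transfer protein, averaged 814 ± 240.5 in CD103+ cDC and 10323 ± 969.8 in Ly6Chi moDC. Lpl, which releases fatty acids from lipoproteins, was 9.53-fold lower. Of 21 genes of sterol and fatty acid synthesis, 13 were higher, 1 lower and 7 not called, with a median of 0.83. Idi1, an isomerase of the mevalonate pathway, had signals of 9280, 10609 and 8480 in CD103+ cDC, against 1606, 1493 and 1243 in Ly6Chi moDC. Fdft1 and Lss, the enzymes that make squalene and then lanosterol, were 4.13-fold and 4.11-fold higher, and Srebf2, the transcription factor that drives sterol synthesis, 2.57-fold higher. The arrays of Idi1 did not overlap. The single lower member was Dhcr7, which makes cholesterol from its precursor, at -0.64 ± 0.18, and Insig1, a brake on the pathway, was not called at -0.16 ± 0.15.

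Interferon-stimulated genes were lower in CD103+ cDC in 31 of 41 tested members, with 2 higher, 8 not called and a median of -1.11. Gbp7, a guanylate-binding protein of cell defence, had signals of 361, 203 and 211 in CD103+ cDC, against 2689, 3245 and 3182 in Ly6Chi moDC. Rtp4, a chaperone of receptors, had signals of 420.5, 309 and 371 in CD103+ cDC, against 3821, 4242 and 4142 in Ly6Chi moDC. Cxcl10, a chemokine for Cxcr3 on T cells, had signals of 2164, 867 and 1163 in CD103+ cDC, against 8651, 8454 and 7738 in Ly6Chi moDC. None of the 3 had overlapping arrays, and they were 10.3-fold, 9.94-fold and 6.16-fold lower. Oas2, which makes the activator of an antiviral RNase, was 7.52-fold lower, and Cmpk2, a mitochondrial nucleotide kinase, 4.78-fold lower. One of the 2 higher members was Irf1, a transcription factor of the interferon gamma response, at 0.90 ± 0.17. Mx1, an antiviral GTPase, and Stat2, a transducer of type I interferon signals, were not called, at 0.12 ± 0.14 and 0.40 ± 0.17. Quantile normalization gave 32 lower and 3 higher, median centring 32 and 1, and the fit without the CD103+ cDC arrays of high Gapdh ratio 31 and 1. Without CD103+ cDC array 1 or 2 or Ly6Chi moDC array 2 or 3, 1 was higher.

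The promoters of interferon-stimulated genes were searched for the interferon-stimulated response element, the site bound by complexes of Stat and Irf proteins, written as GAAA, any 2 bases and GAAA, on both strands and in RefSeq promoter windows of 300 bases (GRCm38.p6, 250 before and 50 after the start). It stood in 18 of 32 list members with a window (56.2%), against 3.49% of all 27025 windows. Among genes at least 2-fold lower in CD103+ cDC, 5.95% of 908 windows held it, against 3.22% of 1024 windows of genes at least 2-fold higher and 3.14% of 8940 windows of genes tested. The genes at least 2-fold lower include 23 members of the interferon list, so their share is not independent of that of the list. Sites of other transcription factors were searched too, in genes at least 2-fold lower, at least 2-fold higher and tested. The AP-1 site stood in 7.93%, 4.39% and 4.91% of windows, and the CEBP site in 11.3%, 7.42% and 8.11%. The PU.1 site stood in 16.3%, 15.2% and 13.8%, and the NF-kappaB site in 10.4%, 11.9% and 10.1%. A higher share in the lower genes was therefore not particular to the interferon element. These shares are descriptions with no test. Gbp7 and Cxcl10 are shown because they were the members with the motif among the 8 most different of the list, with the match in capitals.
Gbp7, chr3:142530086-142530385, plus strand: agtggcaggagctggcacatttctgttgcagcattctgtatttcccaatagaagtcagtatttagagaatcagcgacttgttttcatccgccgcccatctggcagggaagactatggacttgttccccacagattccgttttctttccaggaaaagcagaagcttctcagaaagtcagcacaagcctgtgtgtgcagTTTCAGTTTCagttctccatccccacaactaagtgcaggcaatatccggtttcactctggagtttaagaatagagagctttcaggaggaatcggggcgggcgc
Cxcl10, chr5:92348840-92349139, minus strand: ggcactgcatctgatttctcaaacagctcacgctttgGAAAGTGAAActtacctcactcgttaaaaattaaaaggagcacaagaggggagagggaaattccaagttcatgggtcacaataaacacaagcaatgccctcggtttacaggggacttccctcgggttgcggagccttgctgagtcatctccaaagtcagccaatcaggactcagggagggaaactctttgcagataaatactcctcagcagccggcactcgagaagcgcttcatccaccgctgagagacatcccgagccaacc
In Gbp7 the match began 53 bases before the start and read on the other strand, and in Cxcl10 it began 213 bases before the start.

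Cell cycle and DNA replication genes were higher in CD103+ cDC in 45 of 56 tested members, with 1 lower, 10 not called and a median of 1.38. Mki67, the proliferation antigen Ki-67, had signals of 6807, 5088 and 6424 in CD103+ cDC, against 1403, 632 and 866 in Ly6Chi moDC. Rrm2, a subunit of the reductase that makes deoxynucleotides, had signals of 1916, 3647 and 2632 in CD103+ cDC, against 231, 215 and 262 in Ly6Chi moDC. Ccna2, the cyclin of S phase and mitosis, had signals of 767, 1114 and 974 in CD103+ cDC, against 103, 64.9 and 73.0 in Ly6Chi moDC. The populations did not overlap for these genes, and they were 6.31-fold, 9.43-fold and 7.66-fold higher. Nusap1, a spindle protein, was 10.5-fold higher, and Top2a, a topoisomerase of dividing cells, 5.25-fold higher. The other populations lay between for Mki67, with means of 2666 in CD14lo cDC and 2046 in CD14hi moDC. The single lower member was Cdk4, the kinase that starts G1 progress, at -0.64 ± 0.16. Pcna, the sliding clamp of replication, and Cdkn1a, a cell cycle inhibitor, were not called, at 0.26 ± 0.13 and -0.24 ± 0.20. Without the CD103+ cDC arrays of high Gapdh ratio, 44 members were higher and 1 lower, and without CD103+ cDC array 1 alone 2 were lower.

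Many cell cycle promoters carry the cell cycle homology region (searched as TTTGAA) and CCAAT boxes (searched as CCAAT), both known from genes of the G2 and M phases. On both strands of the same windows, the first stood in 14 of 44 list members with a window (31.8%), against 18.1% of all windows, and the second in 27 of 44 (61.4%), against 37.9%. Among windows of all genes tested the shares were 11.9% and 38.7%. Mki67, Kif11, a motor of the mitotic spindle, and Ccnb2, a mitotic cyclin, are shown because they hold both motifs and were among the 8 most different members, with all matches in capitals.
Mki67, chr7:135716330-135716629, minus strand: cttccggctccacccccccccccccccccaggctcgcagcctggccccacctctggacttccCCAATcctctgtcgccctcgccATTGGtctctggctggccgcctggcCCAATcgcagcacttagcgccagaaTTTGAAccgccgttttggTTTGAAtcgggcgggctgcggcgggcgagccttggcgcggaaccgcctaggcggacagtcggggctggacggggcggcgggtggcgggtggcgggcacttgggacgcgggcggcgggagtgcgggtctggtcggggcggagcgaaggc
Kif11, chr19:37376132-37376431, plus strand: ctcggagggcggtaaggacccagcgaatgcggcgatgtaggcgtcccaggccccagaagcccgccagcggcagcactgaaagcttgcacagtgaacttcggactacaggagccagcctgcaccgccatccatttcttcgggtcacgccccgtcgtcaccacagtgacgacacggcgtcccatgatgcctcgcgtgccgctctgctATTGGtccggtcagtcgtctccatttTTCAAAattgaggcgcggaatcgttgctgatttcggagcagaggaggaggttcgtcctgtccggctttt
Ccnb2, chr9:70421505-70421804, minus strand: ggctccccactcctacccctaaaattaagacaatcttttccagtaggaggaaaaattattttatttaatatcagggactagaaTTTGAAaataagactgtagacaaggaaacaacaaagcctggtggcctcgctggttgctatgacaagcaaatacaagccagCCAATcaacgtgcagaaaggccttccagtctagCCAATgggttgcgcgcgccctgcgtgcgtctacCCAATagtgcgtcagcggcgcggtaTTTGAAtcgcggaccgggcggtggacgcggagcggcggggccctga
The list genes Kif11 and Ccnb2 were 6.29-fold and 5.39-fold higher in CD103+ cDC. In Mki67 the homology region stood 116 and 98 bases before the start and CCAAT boxes 188, 166 and 141 bases before it.

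**Figure D5:**
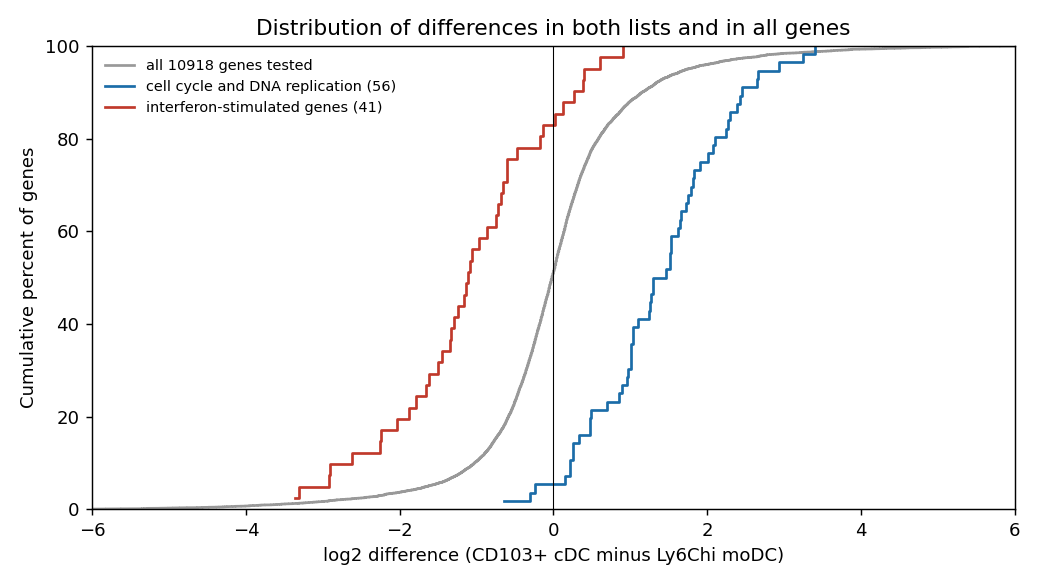
Cumulative percent of genes by log2 difference (CD103+ cDC minus Ly6Chi moDC) for 56 cell cycle genes (blue), 41 interferon-stimulated genes (red) and all 10918 genes tested (grey). The blue curve lies to the right of the grey one and the red curve to its left.

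Of 28 glycolysis and pentose phosphate genes, 17 were lower in CD103+ cDC, 5 higher and 6 not called, with a median of -0.76. Ldhb, a lactate dehydrogenase subunit, was 14.2-fold lower, and Slc16a1, a lactate carrier, 4.84-fold lower. The higher members included Eno2, an enolase, with signals of 2773, 2669 and 2224 in CD103+ cDC, against 218, 132 and 176 in Ly6Chi moDC, and Pfkfb3, which makes an activator of glycolysis, at 4.76-fold higher. Ldha, the other lactate dehydrogenase subunit, was not called at -0.12 ± 0.11. Of 44 respiratory chain genes, 17 were lower, 0 higher and 27 not called (1 higher without CD103+ cDC array 2), with a median of -0.27, and the largest difference was a fall by 1.03 on the log2 scale for Atp5g1, a subunit of the ATP synthase. The count of lower members depended on scaling, at 22 after median centring and 24 after quantile normalization. Of 18 prostaglandin and leukotriene genes, 10 were lower, 2 higher and 6 not called, and 1 was higher without CD103+ cDC array 1 or 2. Ptgs2, the inducible cyclooxygenase, had signals of 202, 84.3 and 63.7 in CD103+ cDC, against 7676, 4222 and 7398 in Ly6Chi moDC, and Pla2g7, which breaks down platelet-activating factor, averaged 64.1 ± 34.5 in CD103+ cDC and 2237 ± 417 in Ly6Chi moDC. Ptger4, a receptor for prostaglandin E2, was 3.08-fold higher. Of 13 genes in the arginine and nitric oxide list, 7 were lower and 2 higher. The list also holds the macrophage genes Mrc1, Chil3 and Retnla, of which Mrc1 and Chil3 were lower and Retnla was not called. Arg1, which splits arginine, had signals of 75.9, 27.3 and 43.4 in CD103+ cDC, against 2981, 3460 and 2883 in Ly6Chi moDC. Nos2, the inducible nitric oxide synthase, did not pass the filter on low signal and averaged 4.28 ± 2.07 in CD103+ cDC and 34.8 ± 36.9 in Ly6Chi moDC. Of 20 oxidant genes, 13 were lower, 3 higher and 4 not called. Hmox1, which degrades haem, averaged 315 ± 114 in CD103+ cDC and 3915 ± 328 in Ly6Chi moDC, and Gclc, an enzyme of glutathione synthesis, was 4.85-fold higher.

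Adhesion genes of epithelial type were higher in CD103+ cDC in 11 of 17 tested members, with 3 lower, 3 not called and a median of 1.15. Epcam, an adhesion molecule of epithelia and Langerhans cells, had signals of 2882, 2250 and 2445 in CD103+ cDC, against 55.5, 29.1 and 22.9 in Ly6Chi moDC. Jup, the junction protein plakoglobin, was 7.92-fold higher and Nectin1, an adhesion partner of other nectins, 6.68-fold higher. Cdh1, which encodes E-cadherin, went the other way, with signals of 145, 98.8 and 132 in CD103+ cDC, against 1203, 952 and 837 in Ly6Chi moDC. Without the CD103+ cDC arrays of high Gapdh ratio 8 members were higher and 3 lower. Markers of lung epithelium, a list that shares Epcam and Cdh1 with this one, split as well, with 8 of 14 tested higher and 3 lower. Besides Cdh1, the lower members were Hopx at -1.31 ± 0.18 and Nkx2-1 at -0.96 ± 0.29 on the log2 scale. The summed signal of all 19 on the array was 10645 to 17861 in CD103+ cDC, against 6880 to 8195 in Ly6Chi moDC. Its largest parts in CD103+ cDC were Scgb1a1, Napsa and Epcam, with means of 4857, 3677 and 2526. In CD14lo cDC the mean of Napsa was higher still at 5456, while Scgb1a1 and Epcam were lower at 2659 and 598. Sftpc, a surfactant protein of alveolar epithelium, had signals of 988, 1063 and 733 in CD103+ cDC, against 134, 252 and 198 in Ly6Chi moDC, and Scgb1a1, a product of club cells, averaged 4857 ± 1869 in CD103+ cDC and 1964 ± 500 in Ly6Chi moDC. The epithelial keratins Krt8 and Krt18 and the alveolar gene Slc34a2 did not pass the filter, with CD103+ cDC means of 38.5, 99.2 and 35.7. The part of epithelial RNA in these results was not tested.

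Of 27 integrin and leukocyte adhesion genes, 9 were higher in CD103+ cDC, 11 lower and 7 not called. Itgb7, the chain that pairs with CD103 to bind E-cadherin, had signals of 6725, 6054 and 5553 in CD103+ cDC, against 1498, 1281 and 1670 in Ly6Chi moDC, and Itgb8, a chain known for activating latent TGF-beta, averaged 574 ± 194 in CD103+ cDC and 4.51 ± 3.23 in Ly6Chi moDC. Itga9, a chain that binds tenascin and osteopontin, was 22.6-fold lower and Itga6, a laminin-binding chain, 10.8-fold lower. Itgal, the CD11a chain, was not called at -0.05 ± 0.17. Of 32 protease and matrix genes, 21 were lower, 6 higher and 5 not called, with a median of -1.79. Plaur, the urokinase receptor, had signals of 186, 198 and 82.8 in CD103+ cDC, against 6408, 6600 and 5562 in Ly6Chi moDC, and Ecm1, an extracellular matrix protein, averaged 241 ± 36.4 in CD103+ cDC and 6818 ± 440.5 in Ly6Chi moDC. F10, coagulation factor X, was 21.4-fold lower. The higher members were inhibitors in 4 of 6 cases (Serpinb6b, Spint2, Serpinb9 and Serpinb1a), and Serpinb9, an inhibitor of granzyme B, had signals of 6888, 6268 and 7098 in CD103+ cDC, against 166, 156 and 215 in Ly6Chi moDC. Of 17 genes of retinoic acid and TGF-beta activation, 4 were higher, 6 lower and 7 not called. Aldh1a2, the enzyme that makes retinoic acid in DC, had signals of 4742, 4589 and 4095 in CD103+ cDC, against 142, 127 and 122 in Ly6Chi moDC, while CD14hi moDC were at a like level (3070 in CD14lo cDC and 5042 in CD14hi moDC). Tgm2, transglutaminase 2, was 14.4-fold lower.

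Receptors for growth factors and cytokines were higher in CD103+ cDC in 10 of 40 tested members, lower in 18 and not called in 12, with a median of -0.20. The list shares Notch2 with that of transcription factors and also holds the growth factor Pdgfb, which was not called. Csf1r, the receptor for the macrophage growth factor, had signals of 1521, 1201 and 1133 in CD103+ cDC, against 15157, 17520 and 15690 in Ly6Chi moDC, and Csf3r, the receptor for the granulocyte growth factor, had signals of 53.4, 40.3 and 8.52 in CD103+ cDC, against 1369, 1362 and 1868 in Ly6Chi moDC. Together with Flt3 and Kit, receptors of the growth factors thus differed in both directions. Il12rb2, a chain of the interleukin 12 receptor, was 5.29-fold higher, and Il17ra, the main chain of the interleukin 17 receptor, 5.46-fold lower. Csf2ra, the alpha chain of the GM-CSF receptor, was not called at -0.04 ± 0.14. Of 32 NF-kappaB and feedback genes, 16 were higher, 7 lower and 9 not called, with a median of 0.36. Without the CD103+ cDC arrays of high Gapdh ratio 10 were higher and 8 lower. Socs2, a brake on cytokine receptors, had signals of 9826, 6864 and 6428 in CD103+ cDC, against 1009, 964 and 749 in Ly6Chi moDC, and Traf1, an adaptor of TNF receptors, was 5.2-fold higher. Ikbke, a kinase of interferon induction, and Irak3, an inhibitor of Toll-like receptor signalling, were 7.96-fold and 7.66-fold lower, and Tnfaip3, the feedback inhibitor A20, was not called at 0.31 ± 0.14. Of 21 apoptosis genes, 9 were higher, 5 lower and 7 not called. This split did not hold, with 3 higher and 3 lower without the CD103+ cDC arrays of high Gapdh ratio, 6 and 6 after median centring, 8 and 3 after quantile normalization, and 3 lower without CD103+ cDC array 1 or Ly6Chi moDC array 3. Birc2, an inhibitor of cell death, was 6.35-fold higher, and Bcl2, a main survival factor, had signals of 358, 312 and 238 in CD103+ cDC, against 1524, 1331 and 1343 in Ly6Chi moDC and was 4.14-fold lower.

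Markers of further cell types were read in the same way. Of 6 tested neutrophil markers 5 were lower in CD103+ cDC, and the summed signal of 13 markers was 559 to 2210 in CD103+ cDC, against 4711 to 4940 in Ly6Chi moDC. S100a8, a chain of calprotectin, had signals of 646, 350.1 and 69.2 in CD103+ cDC, against 1218, 1537 and 1014 in Ly6Chi moDC. The granule genes Mmp8, a collagenase, and Lcn2, which binds iron carriers of bacteria, passed the filter and were 3.33-fold and 1.7-fold lower in CD103+ cDC, with means of 12.6 ± 10.2 in CD103+ cDC and 160.2 ± 49.3 in Ly6Chi moDC for Mmp8. Without CD103+ cDC array 3, 3 neutrophil markers were lower. The granule genes Ngp, Ltf and Elane did not pass the filter, and their Ly6Chi moDC means were 5.3, 46.5 and 26.2. Of 6 NK cell markers 5 were higher in CD103+ cDC, and the summed signal of all 12 on the array was 6137 to 7946 in CD103+ cDC, against 2671 to 2902 in Ly6Chi moDC. Its largest parts in CD103+ cDC were Klrd1 and Klrk1, with means of 2586 and 3055. Both were higher still in CD14lo cDC, at 6418 and 3774. Ncr1, which defines NK cells, was below the filter at 7.65 in CD103+ cDC, as were Nkg7, Gzmb and Eomes. Of 5 T cell markers 2 were higher, among them Cd8a, also a gene of the cDC1 list, at 6.87-fold. Cd3e, a CD3 chain of the T cell receptor complex, was below the filter at 76.6 in CD103+ cDC. Of 4 B cell markers 1 was higher and 1 lower, of 8 plasmacytoid DC markers 2 and 2, of 8 endothelial markers 3 and 4, and of 3 platelet and erythroid markers 0 and 2. Of 14 fibroblast markers 1 was higher and 4 lower, and the summed signal of all 16 on the array was 3011 to 3758 in CD103+ cDC, against 20071 to 21880 in Ly6Chi moDC, of which Fn1 averaged 312 in CD103+ cDC and 15337 in Ly6Chi moDC. The 1 higher fibroblast marker and 1 of the 2 higher T cell markers were not called without CD103+ cDC array 3 or without Ly6Chi moDC array 1, and the T cell count was 1 without Ly6Chi moDC array 3 too. Alveolar macrophage markers were higher in 4 and lower in 5 of 15, and the sum of all 16 on the array was 5448 to 12571 in CD103+ cDC, against 11924 to 14735 in Ly6Chi moDC. The 4 higher ones came to 2 after quantile normalization or median centring, and to 2 without CD103+ cDC array 1 or 2 or Ly6Chi moDC array 2 or 3. The only tested marker of mast cells, basophils and eosinophils, Siglecf, was not called. The part of such cells in the results was not tested.

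The remaining populations of the series mostly lay between both. Of the 1300 genes at least 2-fold higher in CD103+ cDC, the mean of CD14lo cDC fell between the means of both populations in 1150 (88.5%) and the mean of CD14hi moDC in 1133 (87.2%). On a scale from 0 at Ly6Chi moDC to 1 at CD103+ cDC, the median position of these genes was 0.52 in CD14lo cDC and 0.42 in CD14hi moDC. Of the 1130 genes at least 2-fold lower in CD103+ cDC, the means lay between in 969 (85.8%) and 878 (77.7%), at median positions of 0.47 in CD14lo cDC and 0.22 in CD14hi moDC. In 231 of the genes lower in CD103+ cDC the CD14hi moDC mean exceeded that of Ly6Chi moDC, as for C1qc with means of 1305 in CD14lo cDC and 17126 in CD14hi moDC. Arg1 means were 36.8 in CD14lo cDC and 169 in CD14hi moDC, against 3108 in Ly6Chi moDC. The positions use the same Ly6Chi moDC and CD103+ cDC arrays as the comparison and are given as a description.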

How the data were processed

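Each sample was measured on 1 mouse genome array, and the deposited table holds linear intensity values made with MAS5, per the submitters' processing notes. The 2% trimmed mean was 500.003 on every array. For the MAS5 version, target and detection calls nothing is stated in the sources used here, so a filter on signal stood in for them, and no depth applies to arrays. Of 45101 probe sets, 64 controls were left out, and a probe set was kept where it exceeded its array's median in at least 3 of 12 arrays (25138 kept). Gene symbols came from the platform annotation and were updated through RefSeq (GRCm38.p6) for 59 probe sets. Over all probe sets, 34945 had 1 symbol, 932 had several and 9160 had none, and genes were named from the first kind alone. Where several probe sets of a gene were kept, that of highest mean signal was used.

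A mean per population was fitted to log2(signal + 50.0) on all 12 arrays with limma 3.58.1 (lmFit, eBayes with an intensity trend; 8 residual degrees of freedom) in R 4.3.3, since the arrays then share 1 estimate of the spread. P-values were two-sided and adjusted over 10918 genes by the Benjamini-Hochberg method, with a call at 0.05. Lists were described by counts and medians, with no test. The members and the 50 lists were chosen with earlier results of these data known. Named were the 15 largest differences in each direction among called genes without overlap, the sort and study markers, and of each list up to 8 called members with the largest differences, up to 4 against its majority and up to 4 not called, the last picked with values in view. Exceptions are stated in the text. The script was tested on simulated data. Alternatives covered normalization, pseudocount, filter, probe set choice, arrays in the fit, variance prior, a block for replicate number and the omission of each array. Tables and figures were made with Python 3.11.15, pandas 2.3.3 and matplotlib 3.10.9.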

Additional observations from a re-analysis of the deposited data

How the results depend on the processing

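The counts of genes higher in CD103+ cDC and genes lower in CD103+ cDC stayed within 1.5 times of 2534 and 2655 under each alternative but one, the test of every probe set, which gave 4578 and 4591 of 21138, with 2313 genes at least 2-fold higher in CD103+ cDC and 1979 genes at least 2-fold lower in CD103+ cDC. A larger pseudocount left 842 genes at least 2-fold higher, since it compresses the folds of dim genes, and a stricter filter, which tested 7059 genes, left 803. Leaving out 1 array at a time gave 2275 to 2453 genes higher and 2343 to 2638 lower, and 1302 to 1365 and 1118 to 1211 at least 2-fold. Without CD103+ cDC arrays 1 and 3, an alternative chosen after seeing the data, 1847 were higher and 1811 lower, with fewer arrays. With replicate number as a block, 2569 genes were higher and 2678 lower, and of 886 list or named genes 2 calls were lost and 11 gained. Equal numbers correlated at 0.052, 0.236 and 0.217 in their deviations. CD103+ cDC array 1 correlated nearly as well, at 0.047, with Ly6Chi moDC array 3. With 3 arrays per population these values cannot show if replicates of equal number shared mice. After quantile normalization the Cox6a1 log2 difference was -0.23 (limma, adjusted p = 0.037) instead of 0.1. The H2-Aa log2 difference was -0.06 (0.5) instead of 0.44, and the Ifi30 log2 difference -0.06 (0.51) instead of 0.41. H2-Aa and Ifi30 were called higher in the main fit and not after this normalization. With probe sets of a gene averaged, the Bmf log2 difference was 0.55 (0.012) and the Ighm log2 difference 0.46 (0.043), the latter instead of -0.43. The Laptm5 log2 difference was then -0.15 (0.36), instead of a called 0.47. Of the 4 Laptm5 probe sets 1 was higher and 1 lower. The cause of the other changes was not tested.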
